A study of Saccharomyces cerevisiae with 6 samples.

Results

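The yeast wall and septum genes described here were 33 genes chosen by name and function: glucan and chitin synthases, the enzymes that remodel the finished polymers, structural wall proteins, genes of mother-daughter separation, and SBE2, SBE22 and SLT2, which act in bud growth and wall signalling. Of the 33, 29 were present among the 4014 genes of the deposited table, with 103 of its 13565 clusters of polyadenylation (pA) sites. SED1, CCW12, CHS1 and SCW10 were not among its genes and are not analysed here. The libraries came from Saccharomyces cerevisiae in mid-log growth, 3 with JHD2 deleted and 3 wild type, and the labels name no strain background. The product of JHD2 removes methyl groups from histone H3 and belongs to the KDM5 enzymes, whose part in keeping 3′ untranslated regions at their length is the question of the series. In 3′READS only the tailed ends of mRNAs are sequenced, and each read therefore gives the cleavage site of 1 transcript. Levels need no correction for transcript length. Nothing in the labels tells whether replicates were separate cultures, so p-values cover the spread between libraries, which may be technical.

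The yeast wall is a mesh of beta-glucan chains with some chitin, coated by mannoproteins that are joined to it through lipid-anchor remnants or directly. At cytokinesis a chitin septum forms between mother and bud, and the daughter cell then makes a chitinase and glucanases that dissolve it from its own side. Damage to the wall is signalled through the kinases Pkc1 and Slt2.

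The table held 380332 to 480847 reads per deletion library and 233749 to 368419 per wild-type library, of which the wall and septum genes made up 2.19 to 2.48% in the deletion and 2.17 to 2.27% in wild type. Wild-type replicate 2, the smallest library, stood apart, its log-scaled gene levels correlating with the other 5 libraries at 0.938 to 0.948, against 0.959 or more for every other pair. JHD2 had 0 clusters in the table, which holds only genes with 2 or more, and its loss was not checked here. Of 5 alpha-cell markers 4 were present, summing to 12525 to 14189 CPM (reads scaled by TMM to a total of 1e6) in deletion libraries and 10090 to 14083 in wild-type libraries. Of 6 a-cell markers 2 were present, at 0 to 5 reads per library each, and the defining a-factor genes MFA1 and MFA2 were not among them. Levels are given in CPM for replicates 1, 2 and 3, means with SD (n = 3 per group), and log2 fold changes as deletion over wild type with their standard error (SE). Adjusted p-values are from the quasi-likelihood test of edgeR with Benjamini-Hochberg adjustment over all tested genes.

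Most fold changes were small, and 1 gene, the chitinase gene CTS1, was called higher in the deletion. None was called lower. CHS2 missed the count filter, leaving 28 tested genes, whose median log2 fold change was 0.17 with a range of -0.40 (GSC2) to 0.64 (PIR3), beside -0.00026 over all 3366 tested genes. Of all genes 1.31% were called, 1.07% higher and 0.238% lower. The fold change was above 0 for 20 of the 28 genes, against 50% of all genes. The genes were chosen with earlier results of these data known, so comparisons with all genes, here and below, only describe the set. At an unadjusted p under 0.05, CTS1, PIR3, DSE2 and GAS5 were higher (5.64% of all genes) and SLT2 was lower (4.19%), so that 5 of 28 passed in either direction against 9.83% of all genes. The libraries of the groups did not overlap for GAS5, BGL2, PIR3, CTS1, DSE2 and SBE22, all higher in the deletion (8.62% of all genes), nor for SLT2, lower in the deletion (6.95%). That made 7 of 28, against 15.6% of all genes. The median fell to 0.10, 0.098 and 0.11 without deletion replicate 1, deletion replicate 2 or wild-type replicate 2, with 18 to 21 genes above 0 over all 6 left-out libraries. The median SE was 0.16 on the log2 scale, and the 27 genes that were not called are therefore not shown to be equal in the groups. In these bulk libraries, more cells that express a gene and more RNA per cell cannot be told apart.

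**Figure D1:**
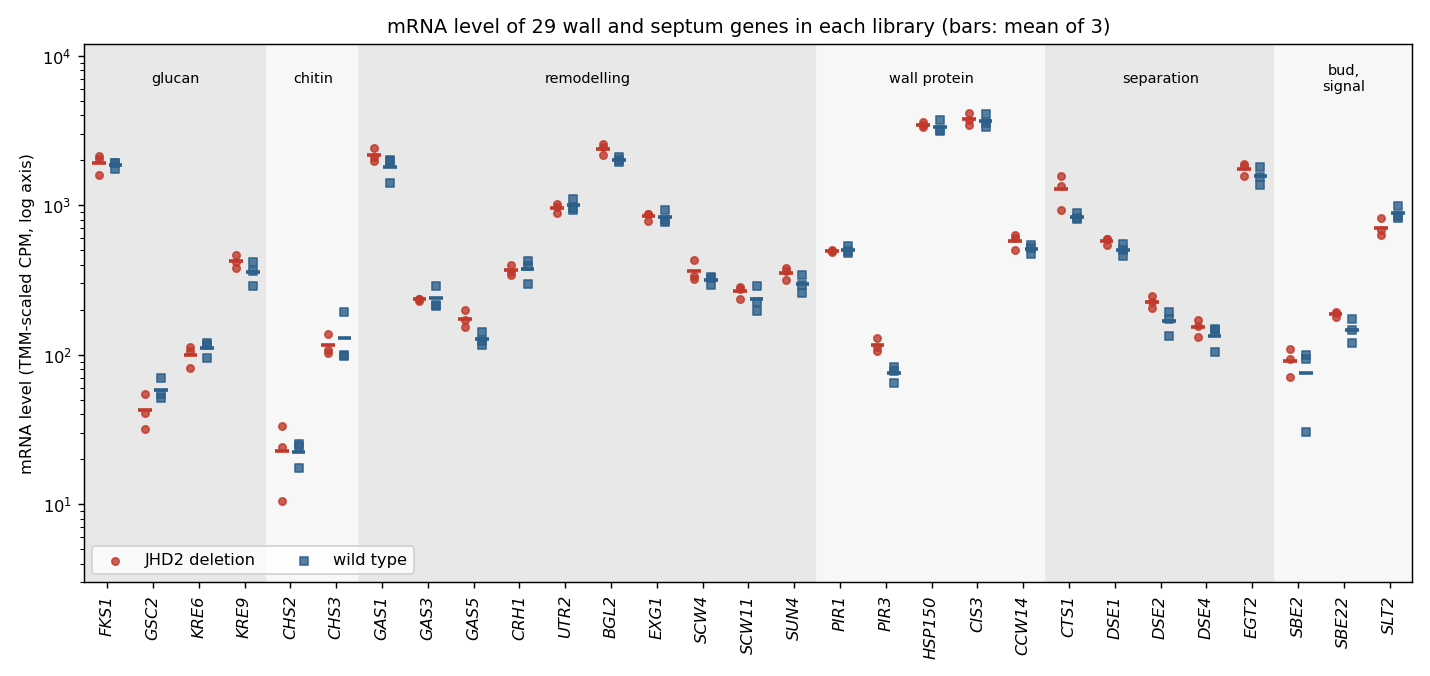
Level of 29 wall and septum genes in each library, in TMM-scaled CPM on a log axis, with deletion libraries as circles, wild-type libraries as squares and horizontal bars for the mean of 3. The genes run from CHS2, with a mean of 22.5 CPM over all libraries, to CIS3, with 3715 CPM, and for CTS1, PIR3 and GAS5 every circle lies above every square.

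**Figure D2:**
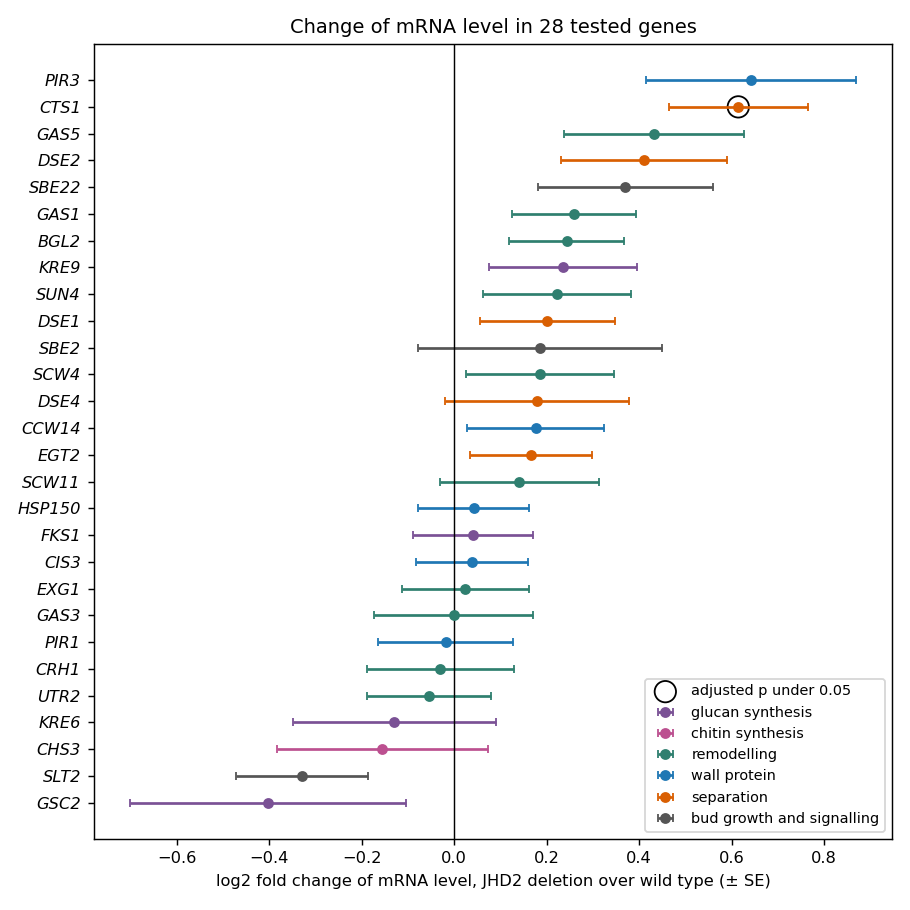
Log2 fold change of mRNA level, deletion over wild type, for the 28 tested genes, coloured by role, with bars for the SE and a ring around the gene with an adjusted p under 0.05. All 5 separation genes lie to the right of 0, and the ringed gene is CTS1 at 0.61.

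None of the 4 glucan synthesis genes was called, and 2 of them had a fold change above 0. FKS1 (YLR342W, chromosome XII, 809997 to 815627, plus strand) encodes the main catalytic subunit of glucan synthase in growing cells. It stood at 2147, 2039 and 1591 CPM in deletion libraries, against 1919, 1762 and 1922 in wild-type libraries. The groups overlapped, and the log2 fold change was 0.04 with an SE of 0.13 (adjusted p = 0.95). GSC2, the alternative subunit used under stress and in sporulation, averaged 42.5 ± 11.4 CPM in deletion libraries, against 58.4 ± 9.62 in wild-type libraries. Its log2 fold change of -0.40 had an SE of 0.30 (adjusted p = 0.69). KRE9 (YJL174W, chromosome X, 95092 to 95922, plus strand) encodes a secreted protein needed for the branched glucan that ties mannoproteins to the wall. It had 467, 419 and 378 CPM in deletion libraries, against 364, 286 and 416 in wild-type libraries, with wild-type replicate 3 inside the deletion range. Its log2 fold change was 0.23, SE 0.16 (95% interval -0.08 to 0.55, adjusted p = 0.66). KRE6, a membrane protein of the same branch, averaged 100.4 ± 16.3 CPM in deletion libraries, against 111 ± 13.5 in wild-type libraries.

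Of the chitin synthases, CHS3 makes the chitin ring at the bud neck and most chitin of the lateral wall, and CHS2 lays down the primary septum. CHS3 (YBR023C, chromosome II, 284428 to 287925, minus strand) had 103, 139 and 107 CPM in deletion libraries, against 97.7, 99.8 and 192 in wild-type libraries. A single library, wild-type replicate 3, held the highest value, and the log2 fold change was -0.16, SE 0.23 (adjusted p = 0.87). Without that library it was 0.23, so the sign rests on it. CHS2 was too low for the test, with 28 reads in the deletion libraries and 20 in the wild-type libraries. The proteins that deliver or activate chitin synthases were listed as well. Of 16 named, 12 were tested, and by edgeR 0 were called, 3 with a fold change above 0 and a median of -0.10 (-0.17 and -0.031 without wild-type replicates 1 and 2 in turn, and -0.036 without deletion replicate 1). The smallest p-values in that list were those of CHS5, which sorts Chs3 to the surface (log2 fold change -0.46, SE 0.23, adjusted p = 0.52), and SKT5, its activator at the bud neck (-0.56, SE 0.32, adjusted p = 0.58).

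None of the 10 tested remodelling genes was called, and 7 had a fold change above 0, with a median of 0.16. The median was 0.067 without deletion replicate 1 and 0.24 without deletion replicate 3, with 6 to 9 genes above 0 over the 6 left-out libraries. GAS1, GAS3 and GAS5 encode members of a family of glucan elongases at the cell surface. CRH1 and UTR2 encode enzymes that join chitin to glucan, and BGL2, EXG1, SCW4, SCW11 and SUN4 encode glucanases or relatives of them in the wall. BGL2 (YGR282C, chromosome VII, 1057783 to 1058724, minus strand), the highest of them, had 2580.5, 2456 and 2154 CPM in deletion libraries, against 2019, 1944 and 2107 in wild-type libraries. Its groups did not overlap, but the gap between the nearest libraries was small, and the log2 fold change was 0.24, SE 0.12 (adjusted p = 0.52). GAS5 (YOL030W, chromosome XV, 268187 to 269641, plus strand) had 170.1, 200.2 and 153 CPM in deletion libraries, against 141, 117 and 123 in wild-type libraries. Here too every deletion library was above every wild-type library, with a log2 fold change of 0.43, SE 0.19, that missed the threshold (adjusted p = 0.42). The linking enzymes CRH1 and UTR2 were near 0, at -0.03 (SE 0.16) and -0.05 (SE 0.13). The best-known elongase gene, GAS1, averaged 2167 ± 215 CPM in deletion libraries, against 1804 ± 338 in wild-type libraries, where replicate 2 was lowest at 1415.

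None of the 5 tested wall proteins was called, and the abundant ones had fold changes near 0. HSP150 and CIS3 encode proteins with internal repeats (the PIR family) that bind directly to glucan, and they had the highest levels of the 28 tested genes. CIS3 (YJL158C, chromosome X, 122265 to 122948, minus strand) stood at 3738, 4118 and 3446 CPM in deletion libraries, against 4060.1, 3567 and 3363 in wild-type libraries. The ranges overlapped almost wholly (log2 fold change 0.04, SE 0.12, 95% interval -0.20 to 0.28, adjusted p = 0.95). HSP150 averaged 3454 ± 138 CPM in deletion libraries, against 3357 ± 326 in wild-type libraries, and PIR1 averaged 495 ± 8.37 CPM in deletion libraries, against 503 ± 31.5 in wild-type libraries. CCW14, a lipid-anchored protein of the inner wall, averaged 581 ± 67.2 CPM in deletion libraries, against 511 ± 35.3 in wild-type libraries (log2 fold change 0.18, SE 0.15).

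PIR3, the lowest member of its family, had the highest fold change of the 28 genes and was not called. PIR3 (YKL163W, chromosome XI, 144401 to 145378, plus strand) had 105, 112 and 130.3 CPM in deletion libraries, against 65.1, 78.1 and 83.3 in wild-type libraries. Every deletion library was above every wild-type library (log2 fold change 0.64, SE 0.23, adjusted p = 0.22). Its reads came from ends of different kinds, shown here as 30 bases, 5′ to 3′, of sacCer3 (RefSeq copy, R64) with the deposited position in the middle. Capitals mark a run of A at the site. The sources used here do not give whether positions count from 0 or 1, so windows and distances can be off by 1 nt.
PIR3 27 nt into the gene, chrXI:144414-144443, plus strand: agccattagtcgtctccgctttagctgcta
PIR3 265 nt past the stop codon, chrXI:145629-145658, plus strand: attgtAAAAAAAAAAAttttatgatacata
PIR3 353 nt past the stop codon, chrXI:145717-145746, plus strand: ggtcctgctataaaaatatcgtttataata

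The PIR3 cluster 27 nt into the gene lay 950 nt before the stop codon and could not end a full-length message. It held 13, 11 and 11 reads in deletion libraries, against 13, 11 and 9 in wild-type libraries, near-equal counts in libraries that were deeper in the deletion. The cluster at 353 nt held 23, 17 and 30 reads in deletion libraries, against 7, 6 and 8 in wild-type libraries. The cluster at 265 nt held 5, 9 and 12 reads in deletion libraries, against 4, 1 and 5 in wild-type libraries. At 265 nt the genome itself carries a run of 11 A. With clusters past the stop codon only, the PIR3 level was 74.3, 82.7 and 107 CPM in deletion libraries, against 29.9, 30.4 and 50.7 in wild-type libraries. In that setting PIR3 was called higher, with a log2 fold change of 1.27, SE 0.29 (adjusted p = 0.014, edgeR), where 1.06% of 3209 genes were called higher and 0.218% lower. PIR3 had 31, 31 and 51 such reads in deletion libraries, against 11, 7 and 14 in wild-type libraries, and leaving out deletion replicate 3 ended the call (log2 fold change 1.08, adjusted p = 0.15), as did leaving out wild-type replicate 1 (1.09, adjusted p = 0.097). These fits without single libraries were chosen after the data were seen. Without the other libraries in turn the adjusted p was 0.014 to 0.044.

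HSP150 and CIS3 are neighbours that point at each other, with stop codons 574 nt apart, and their transcripts end between them. The sites shown are the most-used end of each gene and the farthest end of CIS3.
HSP150 316 nt past the stop codon, chrX:121992-122021, plus strand: taaaaagacttggaaagcaacgagtgatcg
CIS3 143 nt past the stop codon, chrX:122107-122136, minus strand: gtttcttttatttagataaatatttttttt
CIS3 345 nt past the stop codon, chrX:121905-121934, minus strand: tttatggaagagtatataaggggcaattaa
The most-used ends left a gap of 116 nt between the transcripts, while the CIS3 end at 345 nt reached 86 nt into the HSP150 transcript that ends at 316 nt. Usage was not called in either gene (adjusted p = 0.93 for HSP150 and 0.98 for CIS3, edgeR). Shares, here and below, are of the reads in the retained clusters of a gene, those summing to 20 or more reads. HSP150 had 84.9% ± 1.54 of its reads at 316 nt in deletion libraries, against 87.2% ± 3.81 in wild-type libraries, CIS3 had 70.8% ± 2.52 at 143 nt in deletion libraries, against 73.4% ± 0.465 in wild-type libraries, and the overlapping CIS3 end held 7.66% of CIS3 reads in deletion libraries, against 7.51% in wild-type libraries.

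The 5 separation genes all had a fold change above 0 (4 of 5 from clusters past the stop codon only), with a median of 0.20, and 1 of them, CTS1, was called. CTS1 (YLR286C, chromosome XII, 708448 to 710136, minus strand) encodes the endochitinase that degrades the septum. It stood at 1572, 1345 and 927 CPM in deletion libraries, against 817, 885 and 807 in wild-type libraries. Every deletion library was above every wild-type library, deletion replicate 3 by the smallest margin, and the deletion libraries spread more widely (1281 ± 327 CPM, against 837 ± 42.5 in wild-type libraries). The log2 fold change was 0.61, SE 0.15 (adjusted p = 0.020). The call depended on single libraries: it was lost without deletion replicate 1 (log2 fold change 0.44, adjusted p = 0.33), deletion replicate 2 (0.57, 0.21), wild-type replicate 1 (0.59, 0.058) or wild-type replicate 3 (0.59, 0.11), and with the Wald test of DESeq2 (0.60, 0.092). Without deletion replicate 3 it was 0.80 (adjusted p = 0.0011).

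Most CTS1 reads lay at 1 end, 173 nt past the stop codon.
CTS1 173 nt past the stop codon, chrXII:708260-708289, minus strand: ttaattttcttcgatttactgtgtttctac
This cluster held 580, 419 and 364 reads in deletion libraries, against 247, 164 and 188 in wild-type libraries, 84.7% ± 3.23 of CTS1 reads in deletion libraries, against 82.3% ± 1.96 in wild-type libraries. Its level was 1106 ± 315 CPM in deletion libraries, against 698 ± 18.7 in wild-type libraries, and the minor end at 47 nt stood at 109 ± 6.32 CPM in the deletion, against 73.5 ± 9.86 in wild type. The end at 173 nt lies 63 nt past the start of a small annotated open reading frame on the same strand, YLR285C-A, and inside it. A full-length message of that frame could not end there. Reads of CTS1 and of a shortened transcript of that frame cannot be told apart there. The end at 47 nt lies before that frame.

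The other 4 separation genes were not called. EGT2 (YNL327W, chromosome XIV, 24048 to 27173, plus strand), an anchored wall protein of early G1, had 1876, 1820.3 and 1582 CPM in deletion libraries, against 1368, 1814 and 1535 in wild-type libraries. Its groups overlapped (log2 fold change 0.17, SE 0.13, adjusted p = 0.72). DSE2, a secreted glucanase-like protein, had 249, 224 and 206 CPM in deletion libraries, against 193, 135 and 174 in wild-type libraries. Its groups did not overlap, with a log2 fold change of 0.41, SE 0.18 (adjusted p = 0.40). DSE1, a daughter-specific protein, averaged 578 ± 31.1 CPM in deletion libraries, against 503 ± 45.8 in wild-type libraries, and DSE4, the daughter glucanase, averaged 153 ± 19.7 CPM in the deletion, against 134 ± 25.1 in wild type. Summed, the 5 genes stood at 4425, 4156 and 3412 CPM in deletion libraries, against 3026, 3533 and 3081 in wild-type libraries, so that deletion replicate 3 fell below wild-type replicate 2.

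Separation genes are expressed late in mitosis and in early G1, so genes of each cell-cycle stage were examined in the same libraries. Of the M to G1 list 6 of 8 were tested and 0 called, with summed levels of 1433, 1492 and 1315 CPM in deletion libraries, against 1425, 972 and 1383 in wild-type libraries. Wild-type replicate 2 was lowest. The median log2 fold change of these 6 genes was 0.14, with 4 above 0. This median was smallest, at 0.040, with deletion replicate 2 left out, and largest, at 0.20, with wild-type replicate 3 left out. Of the G2 to M list 4 of 8 were tested and 0 called (median 0.01, and below 0 without any 1 wild-type library, lowest at -0.11 without replicate 2), and of the G1 to S list 6 of 8 were tested and 1 called, the G1 cyclin CLN1, at 79.5 ± 15.9 CPM in deletion libraries, against 159 ± 32.8 in wild-type libraries (log2 fold change -1.01, SE 0.22, adjusted p = 0.0039). The CLN1 call was lost without deletion replicate 2 (adjusted p = 0.079). Whether a different mix of cell-cycle stages has a part in the CTS1 difference was not tested.

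The kinase gene SLT2 was lower in each deletion library and was not called. SLT2 (YHR030C, chromosome VIII, 168890 to 170344, minus strand), which acts at the end of the wall integrity cascade, had 817, 633 and 681 CPM in deletion libraries, against 996, 851 and 822 in wild-type libraries. Every deletion library was below every wild-type library, the nearest by a small margin, and the log2 fold change was -0.33, SE 0.14 (adjusted p = 0.38). Of 20 other genes of the cascade 17 were tested and 0 called by edgeR, 6 with a fold change above 0 and a median of -0.17. RLM1, the transcription factor that Slt2 activates, was at -0.34 (SE 0.16, adjusted p = 0.47). The sensor gene MTL1 was at 0.69 (SE 0.42) and the kinase gene PKC1 at -0.34 (SE 0.21), both with an adjusted p of 0.60.

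The remaining lists were other wall genes and cytokinesis. Of 12 genes of the branched glucan that carries mannoproteins 9 were tested and 0 called, with 5 above 0. Their median of 0.06 was below 0 without 4 of the 6 libraries in turn (lowest -0.083, deletion replicate 3 left out, and highest 0.16, wild-type replicate 1 left out). The smallest p-values were those of SKN1 (log2 fold change 0.46, SE 0.35) and KRE2 (-0.19, SE 0.17). SMI1, whose value of 0.06 is the median of these genes, was also counted among the genes of the wall integrity cascade, under its other name KNR4. Of 17 further wall enzymes and proteins 12 were tested and 1 was called, with 8 above 0 and a median of 0.09 (0.039 without wild-type replicate 2 and 0.017 without wild-type replicate 3). This was PST1, a wall protein made when the wall is under stress, at 1588 ± 139 CPM in deletion libraries, against 970 ± 84.3 in wild-type libraries (log2 fold change 0.72, SE 0.13, adjusted p = 5.1e-04). ZEO1, a membrane protein of wall integrity, came next (0.60, SE 0.19, adjusted p = 0.12). Of 13 septin and cytokinesis genes, which include CHS2, 10 were tested and 0 called, with 8 above 0 and a median of 0.12. Without deletion replicate 1, 5 were above 0 and the median was 0.022. The formin gene BNR1 was at -0.75 (SE 0.38, adjusted p = 0.52) and the myosin gene MYO1 at 0.63 (SE 0.37, adjusted p = 0.59). In the lists with 0 genes called by edgeR, the Wald test of DESeq2 also called 0. At an unadjusted p under 0.05, 1 gene of those lists, RLM1, passed by edgeR, where 9.83% of all genes did, and 0 passed by the Wald test.

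The gene-level test of edgeR called a different use of pA sites in 1 of the 26 genes with 2 or more clusters of at least 20 reads, SBE22. It called 0.21% of 2380 genes. The SBE22 call was lost on leaving out any 1 library, as given below. SBE22 (YHR103W, chromosome VIII, 320414 to 322972, plus strand) encodes a Golgi protein that, together with its relative Sbe2, carries wall components to the growing bud. Its 4 retained ends are spread over 390 nt, 2 of them at a genomic run of A, which is in capitals.
SBE22 44 nt past the stop codon, chrVIII:323002-323031, plus strand: cacaagAAAAAAAAAActggattaaaaggg
SBE22 171 nt past the stop codon, chrVIII:323129-323158, plus strand: tatttcattatcggaactctagattctata
SBE22 273 nt past the stop codon, chrVIII:323231-323260, plus strand: atggAAAAAAAAAAAAcctcgaagttacta
SBE22 434 nt past the stop codon, chrVIII:323392-323421, plus strand: ttggaaattttttaaagatgtcttcactgg
The last of these lies 3 nt before the next gene, GRE3. The runs at 44 and 273 nt are 10 and 12 A long, and the part of such a run in the counts at those ends was not tested.

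SBE22 reads lay most often at the end at 273 nt in deletion libraries and were spread more evenly over the 4 ends in wild-type libraries. The end at 273 nt held 37, 30 and 41 reads in deletion libraries, against 8, 9 and 10 in wild-type libraries. These were 48.1, 46.2 and 46.1% of the reads at the 4 retained ends in deletion libraries, against 18.6, 26.5 and 22.7% in wild-type libraries. The shares did not overlap. The nearest end, at 44 nt, held 9.09, 12.3 and 13.5% in deletion libraries, against 20.9, 32.4 and 22.7% in wild-type libraries, and the farthest, at 434 nt, held 9.09, 16.9 and 15.7% in deletion libraries, against 27.9, 29.4 and 22.7% in wild-type libraries. Both outer ends thus took a smaller share in every deletion library. The end at 171 nt took 27.7% ± 5.25 in deletion libraries, against 25.4% ± 11.8 in wild-type libraries, with overlap. Usage over the 4 ends gave an adjusted p of 0.047, close to the threshold.

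With both outer shares smaller, the mean end of SBE22 hardly moved. It lay 188, 203 and 198 nt past the first end in deletion libraries, against 193, 190.3 and 181 nt in wild-type libraries, 8.47 nt later in the deletion (exact two-sided permutation p = 0.30). In level, the end at 273 nt stood at 86.1 ± 4.04 CPM in deletion libraries, against 32.8 ± 9.35 in wild-type libraries. The end at 44 nt stood at 21.4 CPM in deletion libraries, against 36.6 in wild-type libraries, and that at 434 nt at 25.6 CPM in the deletion, against 37.9 in wild type. No single SBE22 end was called (adjusted p = 0.84 at 273 nt). The gene-level call was lost on leaving out any 1 library (adjusted p = 0.082 to 0.53), with a minimum of 10 reads (0.17), and with limma-voom (0.055). Total SBE22 mRNA was 187 ± 7.78 CPM in deletion libraries, against 147 ± 27.2 in wild-type libraries (log2 fold change 0.37, SE 0.19, adjusted p = 0.52). Its relative SBE2 kept a single retained end and stood at 91.4 ± 19.1 CPM in the deletion, against 75.0 ± 38.7 in wild type.

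**Figure D3:**
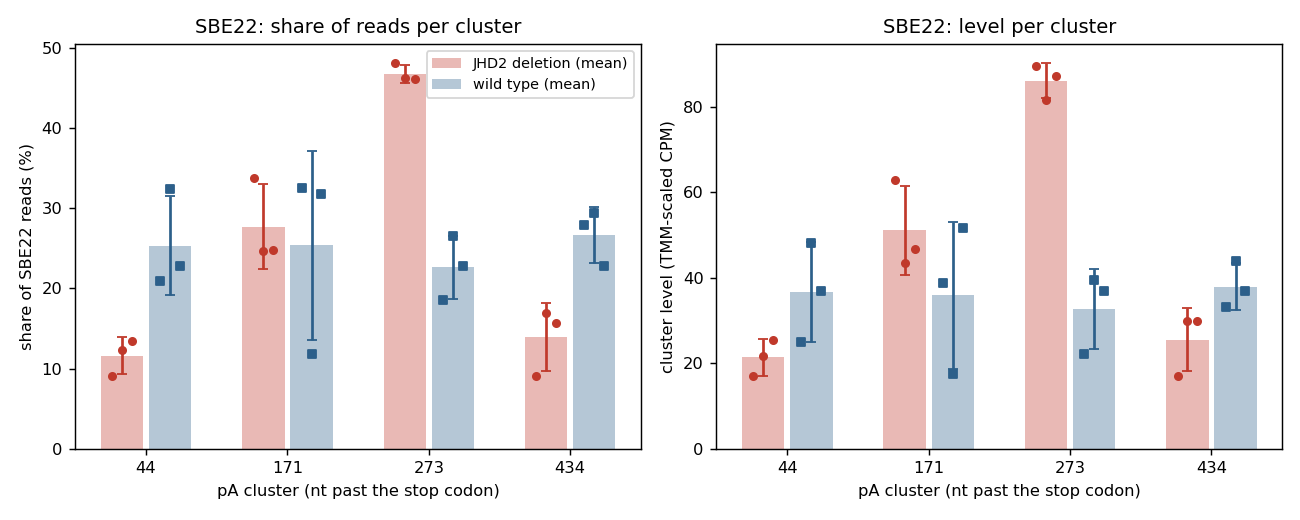
Share of the reads in retained SBE22 clusters (left, %) and level (right, TMM-scaled CPM) at the 4 retained ends, by distance past the stop codon. Bars are the mean, points the 3 libraries of each group and error bars the SD. The deletion libraries hold shares of 46.1 to 48.1% at 273 nt, against 18.6 to 26.5% in wild type, and shares below every wild-type library at 44 and 434 nt.

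Site use was not called in any of the other 25 tested genes. At an unadjusted p under 0.05, 4 of 26 genes passed, GSC2, PIR3, DSE4 and SBE22, against 5.67% of all genes. GSC2 rested on few reads, and only 2 of its 7 clusters were retained. Of the reads in those 2, the end at 134 nt held 52.2% ± 13.5 in deletion libraries, against 76.7% ± 25.2 in wild-type libraries. Single clusters were called in 0 of 74 by edgeR, with 8 at an unadjusted p under 0.05, against 0.0168% and 2.15% of 5952 clusters. The 8 lay in BGL2, PIR3, DSE1, DSE4 and SLT2, 1 each, and in SBE22, which had 3. Mean 3′ ends were later in the deletion in 6 of 26 genes and earlier in 20, against 44.1% of all genes later, but in 13 of the 26 the sign turned under at least 1 alternative. The shift was smaller than the larger of the group SDs in all genes but CRH1, UTR2, PIR3, DSE4, SBE22 and SLT2. The median absolute shift was 2.05 nt, against 3.16 nt over all genes. Only PIR3 had mean ends that did not overlap between the groups, 1 of 26 against 10.7% of all genes.

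The PIR3 shift rested on the cluster near its start. That cluster held 31.7, 29.7 and 20.8% of the reads in retained PIR3 clusters in deletion libraries, against 54.2, 61.1 and 40.9% in wild-type libraries. The mean end lay 317 nt later in the deletion (exact two-sided permutation p = 0.10, the smallest that 3 against 3 allows). Among clusters past the stop codon the shift was 2.37 nt. Usage of PIR3 as a whole had an adjusted p of 0.62 (edgeR). DSE4 had the reverse pattern. A cluster 2404 nt into DSE4, 949 nt before its stop codon, held 12, 19 and 21 reads in deletion libraries, against 8, 7 and 3 in wild-type libraries. These were 29.3% ± 6.19 of the reads in retained DSE4 clusters in deletion libraries, against 16.6% ± 5.76 in wild-type libraries. The mean end of DSE4 was earlier in the deletion by 134 nt (difference -134 nt, exact two-sided permutation p = 0.20). Among clusters past the stop codon it was later by 6.32 nt. Usage of DSE4 was not called (adjusted p = 0.86, edgeR).

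**Figure D4:**
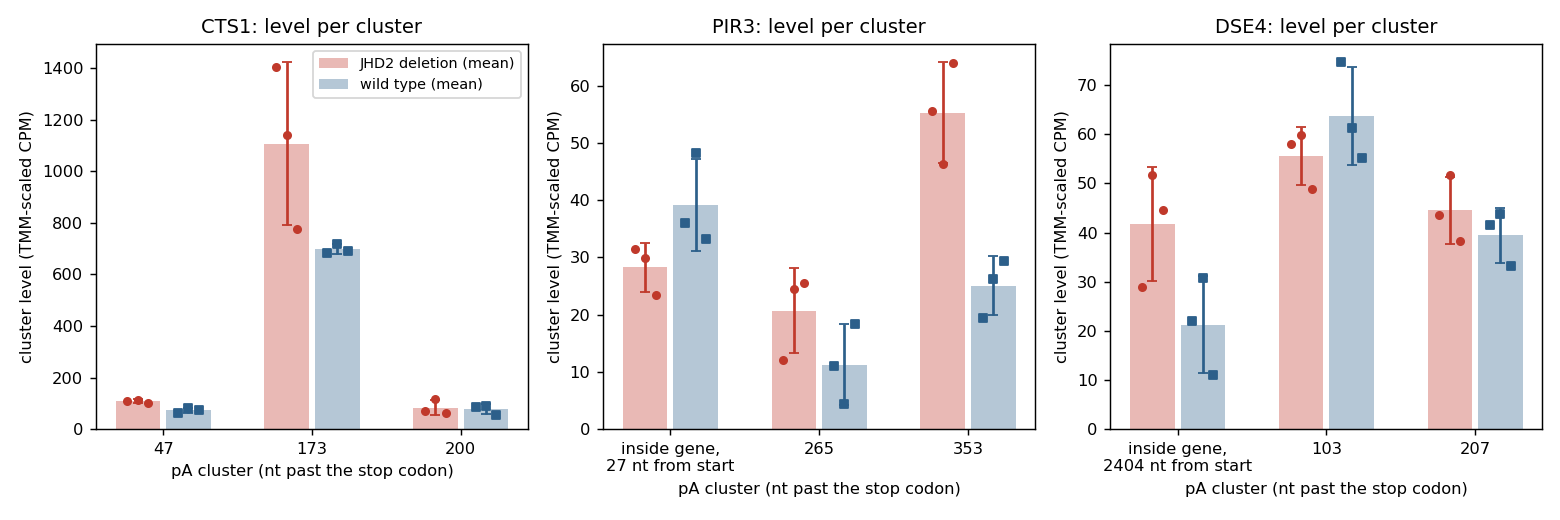
Level of each retained cluster of CTS1, PIR3 and DSE4 in TMM-scaled CPM, with bars for the mean, points for the libraries and error bars for the SD. The CTS1 end at 173 nt averages 1106 CPM in deletion libraries, against 698 in wild-type libraries, and PIR3 is higher in the deletion at 353 nt but not at the cluster inside the gene.

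Beside the SBE22 ends at 44, 273 and 434 nt, some other retained ends had shares that did not overlap between the groups. The matching count over all clusters was not made, and the exact two-sided permutation test cannot go below 0.10 for any of them. They are given as a description only. Among them were the PIR3 cluster near the start, given above, and the PIR3 end at 353 nt, with 52.9% ± 6.01 in deletion libraries, against 33.0% ± 3.61 in wild-type libraries. The DSE4 end at 103 nt held 39.4% ± 4.37 in deletion libraries, against 51.6% ± 5.61 in wild-type libraries. The other 3 differed by 5.68 percentage points or less. The CCW14 end at 44 nt held 25.0% ± 3.19 in deletion libraries, against 19.3% ± 0.858 in wild-type libraries, the CRH1 end at 85 nt held 11.9% ± 1.94 in the deletion, against 8.21% ± 0.503 in wild type, and the BGL2 end at 168 nt held 4.19% ± 0.397 in the deletion, against 5.54% ± 0.649 in wild type. In SLT2 the main end at 157 nt held 61.9% ± 2.16 in deletion libraries, against 67.5% ± 4.60 in wild-type libraries. FKS1 held 91.1% ± 1.72 at 216 nt in deletion libraries, against 90.8% ± 2.66 in wild-type libraries. This end lies 33 nt past the start of the same-strand open reading frame YLR342W-A and inside it. Its reads share the doubt of those of CTS1, over shortened transcripts of the frame.

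The most-used ends of the wall and septum genes lay 103 to 358 nt past the stop codon, with a median of 188 nt for 29 genes, against a median of 128 nt for 3627 genes of the table. Past the stop codon lay 87 of their 103 clusters, with 99.5% of their reads. The efficiency element TATATA stood within 100 nt before 19 of 75 retained ends past the stop codon (25.3%), against 41.4% of 6702 ends of all genes. For most-used ends the counts were 11 of 29 (37.9%) and 46.5%, and for minor ends 8 of 46 (17.4%) and 35.5%. The letters AATAAA stood within 40 nt before 11 of 75 ends (14.7%), against 10.6% of all ends. A genomic run of 6 or more A touched 4 of 75 ends (5.33%), against 2.75% of all ends. Those 4 were in GAS3, at 325 nt, in PIR3, at 265 nt, and in SBE22, at 44 and 273 nt, with runs of 16, 11, 10 and 12 A.

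**Figure D5:**
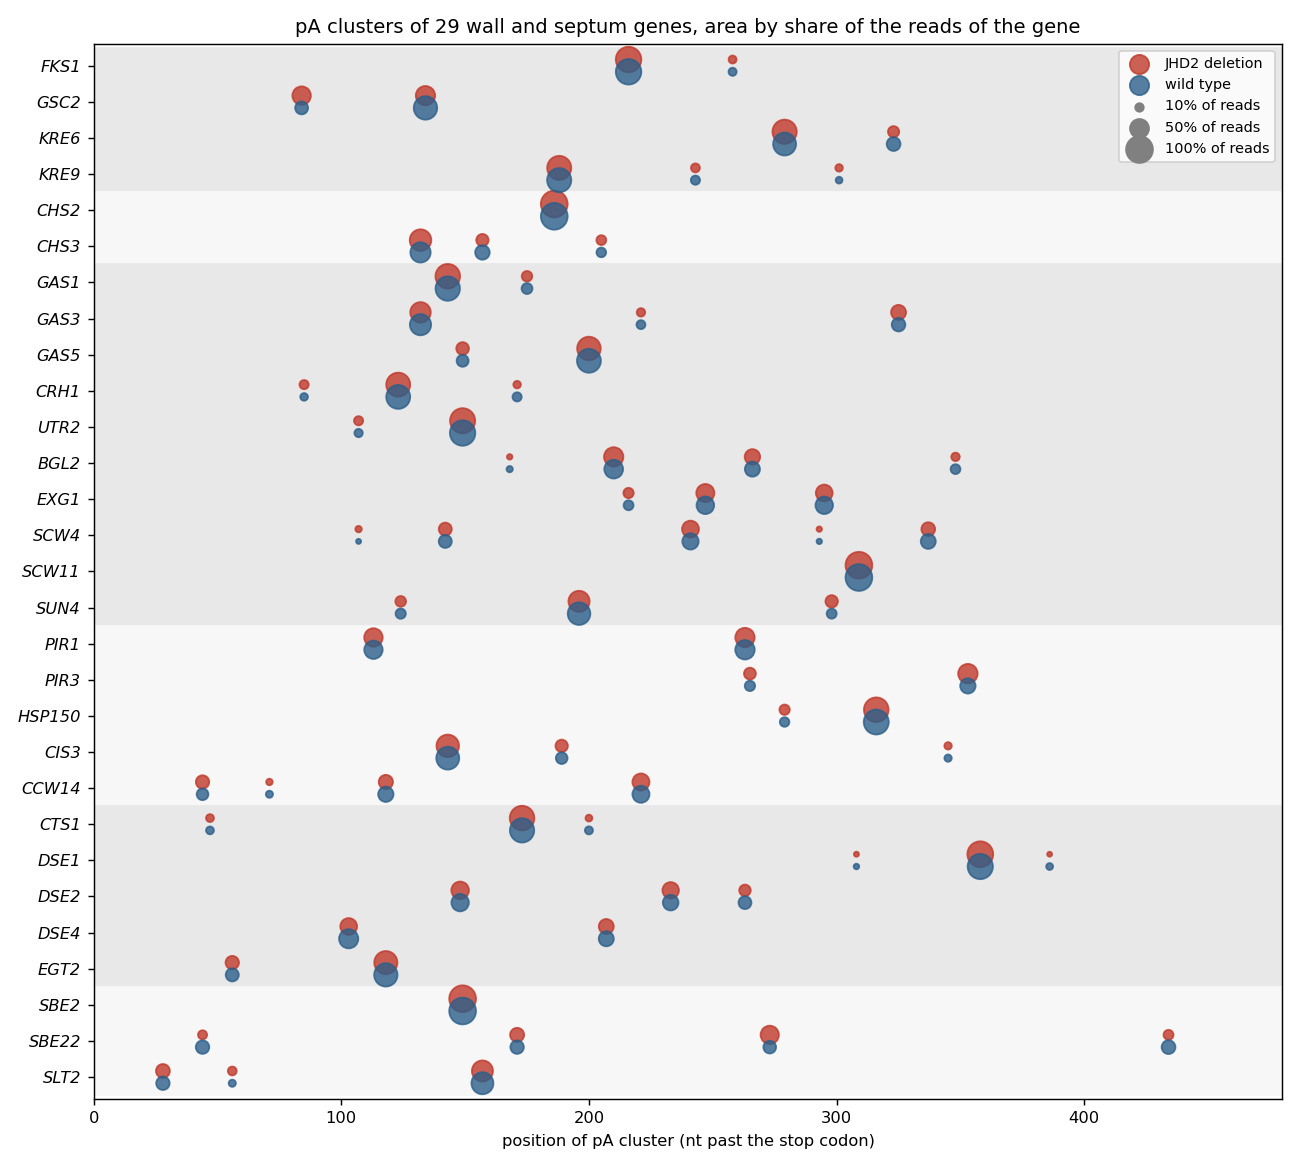
Retained pA clusters past the stop codon of 29 wall and septum genes, by distance in nt, with the deletion above wild type in each row. Dot area is for the mean share of the reads in the retained clusters of the gene. The dots of the groups match closely in most genes, and in SBE22 the dot at 273 nt is larger in the deletion (46.8%, against 22.6% in wild type). Clusters inside genes are not drawn.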

How the data were processed

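Polyadenylated RNA 3′ ends were measured by 3′READS in 3 JHD2-deletion and 3 wild-type yeast libraries. The deposited values are raw read counts per pA cluster and library. Per the series description, reads were aligned to sacCer3 with Bowtie2 (version not given in the sources used here), kept at a mapping quality of 10 or more with at least 2 unaligned T at the 5′ end, and their ends were grouped within 24 bp and given to genes extended by up to 1000 bp. By that description, clusters holding under 3 reads, or less than 5% of a gene's reads, were dropped by the authors. The table still holds clusters below 5% in these libraries. An example is the SCW11 end at 161 nt, with 6 reads where the gene had 335 in deletion and 213 in wild-type libraries. How the 5% was applied is not clear here. All genes in the table have 2 or more clusters, so column totals are not library depths.

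From these counts, gene levels (reads summed over clusters) went through edgeR 4.0.16 (R 4.3.3) with its quasi-likelihood test, TMM scaling and the filter filterByExpr, and site usage with diffSpliceDGE on clusters summing to 20 or more reads, by gene (F test) and by cluster. Levels of genes and of clusters are CPM on separate totals and do not add up. Shares and mean ends use only the clusters of a gene that sum to 20 or more reads. Benjamini-Hochberg adjustment ran over the whole table, with a threshold of 0.05. Standard errors are the fold change divided by the root of its F statistic. Single values per library were compared with exact two-sided permutation tests, whose smallest p is 0.10 with 3 against 3. The scripts were tested on simulated data. Alternatives were DESeq2 1.42.0 (Wald test and size factors), voom with diffSplice of limma 3.58.1, other filters, clusters past the stop codon only, a replicate term and leaving out each library. Sequences and annotation are from the RefSeq copy of the same assembly (R64).

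The members and gene lists were chosen with earlier results of these data known. Members given with a level in every library are those past a threshold, plus the highest and the smallest-p member of each role group. DSE2 is given in the same way, outside this rule. Others named are marked or given as group members. Whether replicate numbers pair the libraries is not known. The correlations of same-numbered deviations from the group means were -0.09, -0.03 and -0.01. With 3 libraries per group these values cannot decide it. Some results are withheld and are not reported here.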

Additional observations from a re-analysis of the deposited data

How the results depend on the processing

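With the Wald test of DESeq2, 21 genes of the whole table were called higher and 5 lower in the deletion, against 36 and 8. With a replicate term 5 were called lower, and among the wall and septum genes 0 were called higher (CTS1 adjusted p = 0.055) and 0 by usage (SBE22 0.12), so that the term moved both calls. The numbers are not known to pair the libraries, and it moved no other call of a wall or septum gene. The Wald test also left 0 wall and septum genes called higher, and clusters past the stop codon only gave 2, CTS1 and PIR3. Leaving out each library gave 26 to 39 genes higher, 4 to 15 lower, and 0 to 1 wall and septum genes higher. For usage, 5 genes became 2 with a minimum of 10 reads, with voom or with the replicate term, 1 with the Simes test or past the stop codon only, and 0 to 4 without single libraries. SBE22 was called in none of these, so the count among wall and septum genes was 0 in each, and 1 with DESeq2 size factors. Single clusters called were 0 in place of 1 with a minimum of 10, with the replicate term or past the stop codon only, and 0 to 5 without single libraries. By alternative, 26 to 28 of the level results of wall and septum genes kept their side of the threshold, but among 307 such results the sign turned in 22, in 12 genes and in no called result. Mean ends moved beyond the spread for KRE6 (-187 nt) and GAS5 (-29.9 nt) with a minimum of 10 reads and for PIR3 (2.37 nt) and DSE4 (6.32 nt) past the stop codon only, where clusters inside the genes enter or leave. The causes of the other changes were not tested. Depth limits the usage results: the SBE22 end at 273 nt holds 8 to 41 reads per library, the PIR3 end at 353 nt 6 to 30, the DSE4 cluster inside the gene 3 to 21 and the GSC2 ends 0 to 12.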

Other observations

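Clusters near the start of a gene, within 150 nt of its first base, were not particular to PIR3. The table held 504 of them (3.72% of all clusters) in 404 genes (10.1%), and 3 of the 29 wall and septum genes (10.3%) had 5 of them. These were PIR3 at 27 nt, KRE6 at 12 nt and GAS5 at 17, 69 and 140 nt. The KRE6 cluster held 2, 7 and 3 reads in deletion libraries, against 2, 0 and 1 in wild-type libraries, too few for a comparison.

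GSC2, the stress-related glucan synthase gene, had 7 clusters, of which 5 lay inside the gene with 5 to 9 reads each. KRE9 had a minor end at 243 nt that lay 4 nt inside the opposite-strand gene RFA3. Both were chosen after their values were seen.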
